A study of Mus musculus with 12 samples.

Results

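The nuclear genes for the subunits of oxidative phosphorylation were followed across liver tumors and livers. The members were all genes of the count files whose symbols begin as complex I subunits (Ndufa, Ndufb, Ndufc, Ndufs or Ndufv and a number), are Sdha to Sdhd, begin with Uqcr, begin with Cox and a number from 4 to 8 followed by a, b or c, or begin with Atp5. The rule found 82 of 24421 genes and used no measured value. These were 35 genes of complex I, 4 of complex II, 8 of complex III, 18 of complex IV and 17 of complex V. By their known roles 20 encode core subunits, 52 accessory subunits, 7 tissue-restricted isoforms and 3 related proteins that are not subunits.

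The libraries came from bulk tissue of aged mice, over 18 mo old, kept on a standard diet. p21+/Tert mice (p21Tert in the labels) express telomerase reverse transcriptase from the promoter of Cdkn1a, the gene for the cell cycle inhibitor p21, and thus in whichever cells use that promoter. p21+/TertCi mice (p21TertCi) express a catalytically inactive Tert from the same promoter. Every animal carried 1 of these alleles, so the series holds no liver without it. There were 4 tumors and 4 livers from p21+/Tert mice, and 2 tumors and 2 livers from p21+/TertCi mice, each liver being non-tumoral tissue of a tumor-bearing animal. Tumors are named by genotype, by hepatocellular carcinoma (HCC) or adenoma (HCA) and by animal. They are T-HCC662 and T-HCC663, T-HCC941 and T-HCA992 from p21+/Tert mice, and TCi-HCC981 and TCi-HCA984 from p21+/TertCi mice. Where 6 values are listed they follow this order, for the tumors and for the livers paired with them. The names are the paper's, and its histology table lists the tumor of T-HCC663's mouse as an adenoma. T-HCC662 and T-HCC663 carry activating Ctnnb1 mutations and are called the Ctnnb1-mutated tumors here, and the 4 others are called the other tumors. These classes come from the study's exome sequencing and not from the labels. Among the other tumors the paper reports an Egfr mutation in T-HCC941 and an Hras mutation in TCi-HCC981. It reports no mutation of the β-catenin or Hras pathways in T-HCA992 and TCi-HCA984. A comparison of the classes cannot tell Ctnnb1 mutation apart from these differences. The liver of T-HCC662's mouse was assigned by elimination, because its label carries another number.

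Complexes I to IV pass electrons from NADH and succinate to oxygen and, except for complex II, pump protons across the inner mitochondrial membrane. Complex V, the ATP synthase, uses the proton gradient to make ATP. Core subunits carry the catalytic centers, accessory subunits are needed for assembly and stability, and hepatocytes are rich in mitochondria that serve gluconeogenesis, urea synthesis and fatty acid oxidation.

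The 12 libraries held 14571716 to 26170661 counts. Members took 0.716% to 1.08% of the counts in the livers, 1.13% in T-HCC662, 0.991% in T-HCC663 and 0.613% to 0.705% in the other tumors. Levels are given as CPM, the counts of a gene per 1000000 counts of its library, with TMM normalization, and a gene was called where its p, adjusted over all genes tested, was under 0.05 in the quasi-likelihood test of edgeR. Tert, the expressed transgene, lay at 10.7 to 17.5 CPM in the livers and 4.64 to 26.2 CPM in the tumors, which does not tell the active from the inactive allele. The summed level of 6 hepatocyte markers was 32030 to 56610 CPM in the livers, 17700 and 35350 CPM in the Ctnnb1-mutated tumors and 71020 to 96820 CPM in the other tumors, with no marker at 0. Albumin made up most of the last range, at 48130 to 71530 CPM, and the markers did not move together. In the other tumors Apoa1 (13960 against 9814 CPM) and Apob (5479 against 4378 CPM) also had higher means than in the livers. Ttr (3461 against 5313 CPM), Serpina1c (2822 against 4689 CPM) and Fah (262 against 475 CPM) had lower means there. Of the 6 markers 1 was called higher and 1 lower in the other tumors, with a median of -0.16. The liver paired with TCi-HCA984 had the lowest member levels among the livers, and T-HCC662 had the highest among the tumors. Subunits encoded by mitochondrial DNA were not analysed here.

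Most members had a count in every library. This held for 77 of 82, and these were the 77 tested when all tumors were set against the livers. Cox7b2 and Cox8c, which are testis isoforms, were at 0 in all 12 libraries. Cox6a2, Cox6b2 and Cox8b, isoforms of striated muscle and testis, did not exceed 3.47, 0.977 and 1.65 CPM in any library. Cox6a2 and Cox6b2 passed the filter on low counts in the models that separate groups, so that 79 members were tested there.

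Promoters are shown first for 4 of the members described below: Sdhb and Ndufs8, which were lower in all 6 tumors, and Ndufa3 and Ndufs4, which differed between the tumor classes. Each runs from 250 bases before to 50 bases after the RefSeq start on build GRCm38.p6, is written 5′ to 3′ on the gene's strand, and has a searched motif in capitals. The intervals are chr4:140961021-140961320 (+) for Sdhb, chr19:3912725-3913024 (−) for Ndufs8, chr7:3617123-3617422 (+) for Ndufa3 and chr13:114388045-114388344 (−) for Ndufs4. Capitals mark the ETS core CCGGAAG, or its reverse CTTCCGG, in the first pair and the YY1 core AAGATGGC in the second pair.
Sdhb: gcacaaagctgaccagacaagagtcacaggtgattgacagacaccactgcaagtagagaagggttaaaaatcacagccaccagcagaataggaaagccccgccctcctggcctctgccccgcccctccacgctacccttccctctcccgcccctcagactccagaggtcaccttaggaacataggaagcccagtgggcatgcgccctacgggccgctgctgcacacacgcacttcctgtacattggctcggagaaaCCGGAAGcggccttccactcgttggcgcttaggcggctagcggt
Ndufs8: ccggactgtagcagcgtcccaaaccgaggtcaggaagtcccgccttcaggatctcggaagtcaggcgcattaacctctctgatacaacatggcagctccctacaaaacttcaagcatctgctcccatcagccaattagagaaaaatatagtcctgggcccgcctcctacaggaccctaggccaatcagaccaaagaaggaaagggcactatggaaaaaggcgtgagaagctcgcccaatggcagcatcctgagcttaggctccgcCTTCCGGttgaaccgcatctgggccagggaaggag
Ndufa3: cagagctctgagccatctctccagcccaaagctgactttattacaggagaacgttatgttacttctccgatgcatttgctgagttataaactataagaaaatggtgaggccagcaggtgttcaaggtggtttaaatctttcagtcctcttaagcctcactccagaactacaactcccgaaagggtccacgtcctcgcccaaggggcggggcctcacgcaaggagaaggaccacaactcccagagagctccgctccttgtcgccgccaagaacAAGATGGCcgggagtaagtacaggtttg
Ndufs4: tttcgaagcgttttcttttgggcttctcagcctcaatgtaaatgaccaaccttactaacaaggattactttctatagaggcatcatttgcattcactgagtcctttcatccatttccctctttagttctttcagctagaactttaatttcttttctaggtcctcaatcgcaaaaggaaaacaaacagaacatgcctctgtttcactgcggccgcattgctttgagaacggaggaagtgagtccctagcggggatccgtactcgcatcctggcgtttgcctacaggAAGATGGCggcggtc

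RefSeq promoters matched 67 of 82 members, and 4 cores known from promoters of respiratory genes were searched on both strands. The NRF1 core CGCATGCG was in the promoters of 9 of 67 members (13.4%), against 4.16% of the 10303 tested genes that had a promoter, and 2.07% of all 27025 genes. The ETS core, read by GABP among other factors, was in 16 members (23.9%), against 18.9% of tested genes and 9.93% of all genes. The YY1 core was in 10 members (14.9%), against 5.08% of tested genes and 3.19% of all genes. The core AAGGTCA of estrogen-related receptors was in 8 members (11.9%), against 4.31% of tested genes and 5.38% of all genes. Shares for members were above those for tested genes for all 4 cores, by the least for ETS. Ndufv2 and Cox7c, which like Sdhb and Ndufs8 lay below every liver in every tumor, had none of the 4 cores. A match in letters is not a binding site.

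Tumors were compared with livers to ask how the tissue changed with tumor formation. Of 77 members tested, 11 were lower (14.3%) and 1 was higher (1.3%), against 3.91% lower and 6.77% higher among all 13822 genes tested. The median log2 fold change was -0.48 over the members and 0.01 over all genes, and 74 of 77 members had a negative value. At an unadjusted p under 0.05, 43 members were lower and 1 was higher, beside 1624 lower and 1996 higher of all 13822 genes. Same-numbered tumors and livers come from 1 animal, and with the animal as a block 29 members were lower and 1 was higher. Leaving out T-HCC662 raised the number of lower members to 34, and leaving out a library in turn otherwise gave 7 to 34. In bulk tissue, fewer cells of a type and less RNA per cell cannot be told apart.

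All 5 complexes shared this shift in their medians. In complex I 7 of 35 members were lower (median -0.54), in complex II 1 of 4 (-0.58), in complex III 1 of 8 (-0.45), in complex IV 1 of 13 (-0.49) and in complex V 1 of 17 (-0.47). Among all genes tested 3.91% were lower, and with 1 call in each of complexes II to V the shift there is read from the medians. Every tested member of complexes I, II and III had a negative value. Core subunits had 6 of 20 lower with a median of -0.50, and accessory subunits had 5 of 52 lower with a median of -0.51.

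Each tumor was also paired with its own liver, and the shift was not seen alike in every animal. T-HCC662, whose liver was assigned by elimination, lay above that liver for some members and below it for others. Examples on the log2(CPM + 1) scale were Ndufa8 (0.85), Ndufa6 (0.719) and Sdhb (-1.105). Ndufa6 lies on chromosome 15, where all genes tested had a median difference from the livers of 0.486 in T-HCC662. The part of that chromosome in its level was not tested. The tumor lay below its own liver in all 6 mice for 33 of 77 members (42.9%), against 11.9% of all genes tested. It lay above in all 6 mice for Ndufa4l2 only (1.3%), against 10.8% of all genes. The 6 tumors lay below all 6 livers for 4 members (5.19%), Sdhb, Ndufs8, Ndufv2 and Cox7c, against 2.24% of all genes, and for no member did all tumors lie above all livers, against 2.86%.

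Sdhb, the iron-sulfur subunit of succinate dehydrogenase (chromosome 4, 140961203 to 140979193), had the smallest p of the members. It lay at 145, 129.5, 93.6, 154, 140.2 and 89.7 CPM in the livers. It lay at 67.0, 51.1, 42.8, 67.9, 61.0 and 76.5 CPM in their tumors. The groups did not overlap, and TCi-HCA984 came nearest to the livers. The log2 fold change was -1.04 (SE 0.19, adjusted p = 0.00481, edgeR, n = 6 and 6). Sdhb was also the only member lower in the Ctnnb1-mutated tumors alone (-1.09, SE 0.29, adjusted p = 0.0367, edgeR) and was lower in the other tumors (-1.03, SE 0.22, adjusted p = 0.00612, edgeR), both against the same livers. The call in the Ctnnb1-mutated tumors was lost, with 0 members lower, without either of these tumors, without the livers paired with T-HCC662, T-HCC663 or T-HCA992, and with the animal as a block without the pair of T-HCC662. Genes of chromosome 4 had a median log2 difference from the livers of -0.29 in T-HCC662 and -0.21 in TCi-HCC981, and their part in the result was not tested.

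The 3 other genes of succinate dehydrogenase had smaller values. Sdha, the flavoprotein that oxidizes succinate, had a median of 322 CPM in the livers (245 to 493) and of 216 CPM in the tumors (120.3 to 338), with overlapping ranges. The value on the log2 scale was -0.70 (SE 0.26, adjusted p = 0.108, edgeR). In edgeR the membrane anchors had values of -0.33 for Sdhc (SE 0.15, adjusted p = 0.18) and of -0.47 for Sdhd (SE 0.17, adjusted p = 0.105). None of these 3 passed the threshold in all tumors, and Sdha passed it in the other tumors (-0.97, SE 0.27, adjusted p = 0.0222, edgeR).

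Of the 7 lower members of complex I, 4 are core subunits of the arm that oxidizes NADH and reduces ubiquinone, and 3 are accessory subunits. Ndufs8, an iron-sulfur core subunit (chromosome 19, 3908863 to 3912774), lay at 116.5, 110, 96.4, 87.7, 100.9 and 79.3 CPM in the livers. It lay at 77.9, 56.8, 50.8, 57.1, 60.4 and 48.8 CPM in their tumors. Every tumor was below every liver, with the narrowest gap between T-HCC662 and the liver paired with TCi-HCA984. The log2 fold change was -0.75 (SE 0.15, adjusted p = 0.00739, edgeR).

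Ndufv1 binds the flavin that takes electrons from NADH, and Ndufv2 and Ndufs3 are further core subunits. Ndufv1 fell by 0.78 (SE 0.18, adjusted p = 0.0185), Ndufv2 by 0.59 (SE 0.14, adjusted p = 0.0177) and Ndufs3 by 0.52 (SE 0.15, adjusted p = 0.0393) on the log2 scale in edgeR. Ndufv2 was tight in the livers, at 76.7 to 87.7 CPM, and lay at 38.4 to 63.0 CPM in the tumors without overlap. Of Ndufs3, 75.7% of the transcript is shared at near identity with a pseudogene, so its level is uncertain. Among accessory subunits Ndufb8 fell by 0.78 (SE 0.16, adjusted p = 0.01), Ndufb6 by 0.72 (SE 0.18, adjusted p = 0.0255), and Ndufa9 by 0.63 (SE 0.17, adjusted p = 0.031) on the log2 scale in edgeR. Ndufa5 had the lowest value of complex I among members below their own liver in all mice, at -0.79 (SE 0.24, adjusted p = 0.0513, edgeR), and did not pass the threshold.

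Uqcrfs1, the Rieske iron-sulfur protein of complex III (chromosome 13, 30540308 to 30545362), had a median of 300.0 CPM in the livers (209 to 343) and of 161 CPM in the tumors (132 to 211). The ranges overlapped through T-HCC662 and the liver paired with TCi-HCC981. The log2 fold change was -0.81 (SE 0.18, adjusted p = 0.013, edgeR), and the tumor was below its own liver in all 6 mice.

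Cox7c, a small membrane subunit of cytochrome c oxidase (chromosome 13, 86044816 to 86046904), lay at 13.8, 11.6, 10.5, 13.0, 13.8 and 8.84 CPM in the livers. It lay at 8.37, 6.81, 3.64, 7.85, 5.71 and 5.33 CPM in their tumors. The groups did not overlap, and T-HCC941 was lowest. The log2 fold change was -0.92 (SE 0.22, adjusted p = 0.0186, edgeR). Near-identical transcripts of 4 pseudogenes cover 32.9% of its transcript, so the level may be undercounted in all groups. In complex V, Atp5j2, subunit f of the membrane part, fell by 0.61 on the log2 scale (SE 0.17, adjusted p = 0.0334, edgeR), with T-HCC662 at 92.7 CPM inside the livers' range of 78.8 to 108.5 CPM. Atp5h of the peripheral stalk had a log2 value of -0.62 (SE 0.22, adjusted p = 0.0911, edgeR) and lay below its own liver in all 6 mice.

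Ndufa4l2 was the only member higher in tumors. It encodes a paralog of the cytochrome c oxidase subunit Ndufa4 that is known as a target of hypoxia-inducible factor (chromosome 10, 127514967 to 127517154). It lay at 4.13, 3.50, 2.23, 1.75, 2.57 and 2.80 CPM in the livers. It lay at 28.5, 4.29, 13.4, 3.10, 3.70 and 8.37 CPM in their tumors. Every tumor was above its own liver, but 2 tumors lay within the livers' range, and T-HCC662 and T-HCC941 were far above the rest. The log2 fold change was 1.85 (SE 0.52, adjusted p = 0.0387, edgeR). The call was lost in 8 of 12 fits that left out a library, with a value of 1.21 (adjusted p = 0.0638, edgeR) without T-HCC662, and 0.0802 for the adjusted p in edgeR without T-HCC941. Leaving out any of the 6 livers also lost it, at adjusted p of 0.0612 to 0.082 in edgeR. Ndufa4 itself had means of 219 CPM in the livers and 144.5 CPM in the tumors, a log2 difference of -0.60 (SE 0.22, adjusted p = 0.104, edgeR). Of 10 other textbook targets of hypoxia-inducible factor, 0 were called in all tumors in either direction (median 0.13), against 6.77% higher and 3.91% lower among all genes. In the Ctnnb1-mutated tumors against livers, where Ndufa4l2 was called too (2.53, SE 0.60, adjusted p = 0.0222, edgeR), 1 of the 10 was higher, against 4.8% of all genes. This was Egln3, a prolyl hydroxylase that acts on hypoxia-inducible factor (1.119, SE 0.30, adjusted p = 0.0388, edgeR), at 48.5 and 41.9 CPM in T-HCC662 and T-HCC663 and at most 23.2 CPM in the livers. Ankrd37 was called in no comparison but reached 11.7 CPM in T-HCC662 and 10.2 CPM in TCi-HCA984, against at most 2.71 CPM in the livers.

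**Figure D1:**
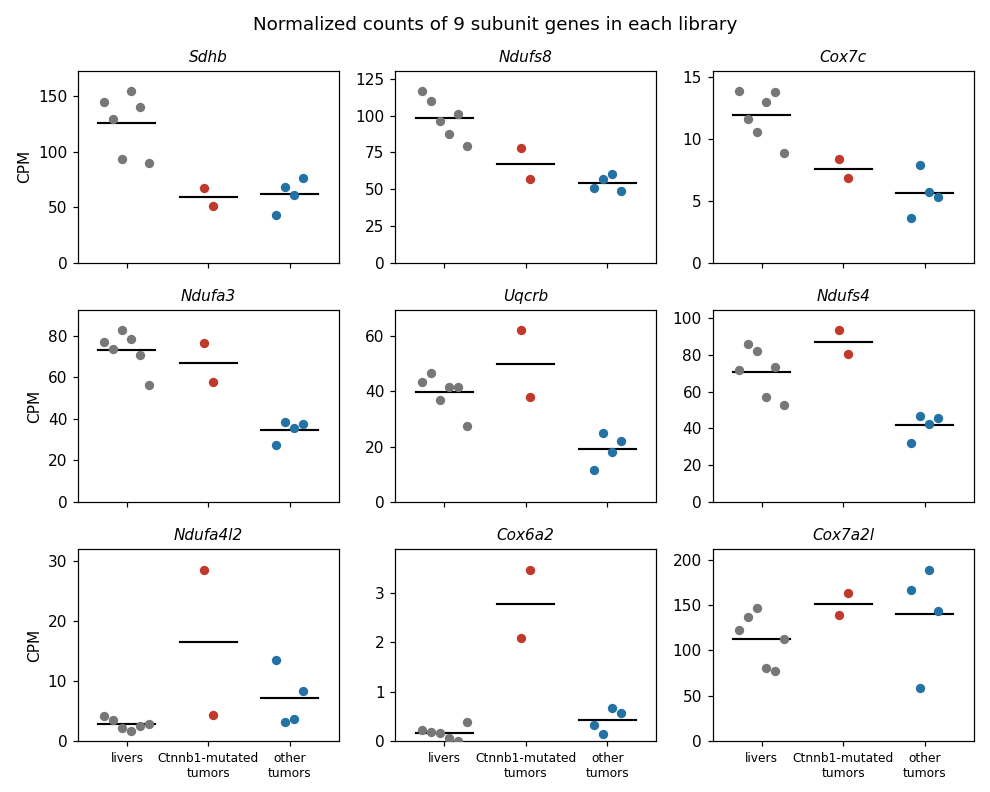
CPM of 9 members in the 6 livers, the 2 Ctnnb1-mutated tumors and the 4 other tumors, 1 point a library with the group mean as a line. Sdhb, Ndufs8 and Cox7c are below the livers in all tumors, Ndufa3, Uqcrb and Ndufs4 are low in the other tumors, and Ndufa4l2 reaches 28.5 CPM in T-HCC662.

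The tumors were not alike in their levels of these genes. The difference on the log2(CPM + 1) scale from the mean of the 6 livers had a median over the 72 core and accessory members of 0.00 in T-HCC662 and -0.39 in T-HCC663. It was -0.91 in T-HCC941, -0.60 in T-HCA992, -0.75 in TCi-HCC981 and -0.62 in TCi-HCA984. The livers spanned -0.29 to 0.16, so T-HCC662 lay within their range and the 5 other tumors below it. Over all genes tested the same median was between -0.02 and 0.01 in every library.

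**Figure D2:**
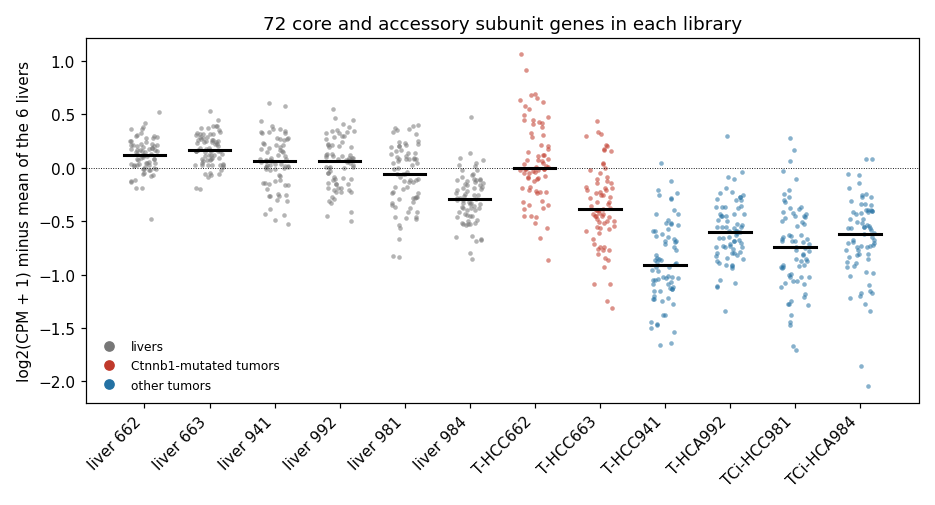
Difference of each core and accessory member from the mean of the 6 livers on the log2(CPM + 1) scale, 1 column a library (livers by the number of their mouse), with the library's median as a bar. The livers' medians run from -0.29 to 0.16, and the tumors' from -0.91 in T-HCC941 to 0.00 in T-HCC662.

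Against the same 6 livers, the tumor classes gave different counts. In the other tumors (n = 4) 52 of 79 members were lower (65.8%) and 0 higher, against 10.2% lower and 12% higher among all 15182 genes tested. The median was -0.75 over the members and 0.00 over all genes. DESeq2 called 57 lower and 1 higher there, beside 1993 lower and 2226 higher of all 15182 genes. At an unadjusted p under 0.05 in edgeR 1 member was higher, beside 2763 of all genes. With the animal as a block 43 members were lower. In the Ctnnb1-mutated tumors (n = 2) 1 member was lower (1.27%) and 2 were higher (2.53%), against 2.98% and 4.8% of all genes, with a median of -0.17. The lower one was Sdhb, and the higher ones were Ndufa4l2 and Cox6a2. Cox6a2 passed the filter on low counts only where fewer libraries had to reach it, and its highest levels are in these 2 tumors, so its call is not read as a result. With the animal as a block 2 members were lower and 0 higher, and without either Ctnnb1-mutated tumor 0 were lower and 1 was higher. These comparisons with livers were chosen after the data had been seen.

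The lower members of the other tumors covered every complex, with 25 of 35 in complex I, 2 of 4 in complex II, 6 of 8 in complex III, 9 of 15 in complex IV and 10 of 17 in complex V. Among all genes tested 10.2% were lower there. The complex medians lay between -0.83 and -0.69. Ndufa3, Ndufa5 and Ndufb7, accessory subunits of complex I, had the smallest p, at log2 fold changes of -1.08 (SE 0.16, adjusted p = 0.000822), -1.18 (SE 0.19, adjusted p = 0.00146) and, for Ndufb7, -1.04 (SE 0.17, adjusted p = 0.00158) in edgeR. Ndufb10 had the lowest value among the complex I members, at -1.36 (SE 0.24, adjusted p = 0.00213, edgeR).

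**Figure D3:**
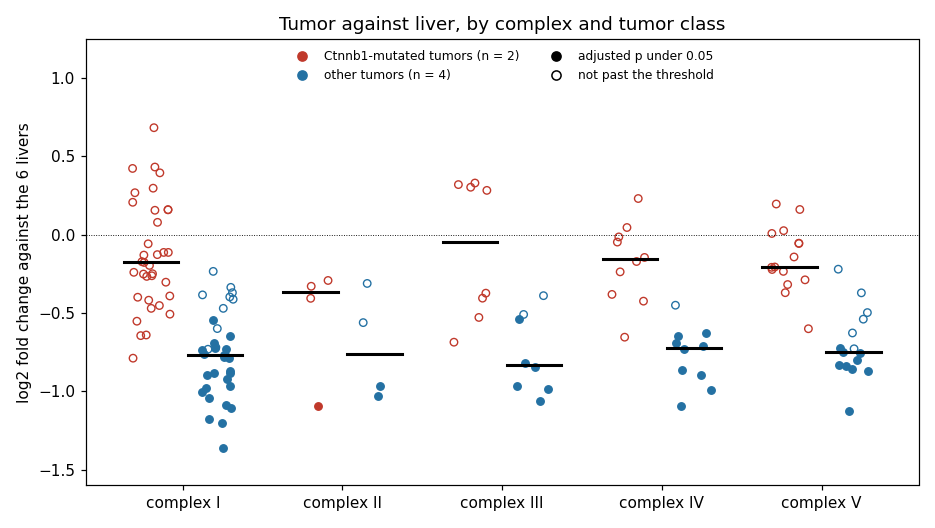
Log2 fold change against the 6 livers of each core and accessory member (points) by complex, with the median as a bar, in the Ctnnb1-mutated and the other tumors; filled points have an adjusted p under 0.05. In the other tumors the medians of complexes I to V lie between -0.83 and -0.72, and in the Ctnnb1-mutated tumors between -0.37 and -0.05, where Sdhb is the only filled point.

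Ctnnb1-mutated and other tumors were also tested against each other. Of 79 members 19 were higher in the Ctnnb1-mutated tumors (24.1%) and 0 lower, against 6.12% higher and 5.7% lower among all genes tested, and the median was 0.56 against -0.04. DESeq2 called 24 higher and 0 lower, beside 1319 higher and 1704 lower of all 15182 genes. At an unadjusted p under 0.05 edgeR had 39 higher and 0 lower, beside 2158 higher and 2318 lower of all genes. None of the 19 calls was kept with the animal as a block, and none without T-HCC662, where in both cases 0 members were called. In the 6 tumors alone 4 were called. The values themselves stayed positive for the genes described next. Without T-HCC662, which leaves 1 Ctnnb1-mutated tumor that is assumed to vary like the other libraries, the log2 difference was 0.73 for Ndufa3, 0.98 for Uqcrb and 0.94 for Ndufs4. Without T-HCC663, which also leaves 1 tumor in that class, 12 members were called. Over core and accessory members, the livers paired with T-HCC662 and T-HCC663 had the highest median differences from the livers' mean, at 0.123 and 0.163. The other livers were at 0.058, 0.065, -0.06 and -0.292 on this log2(CPM + 1) scale. With the block each tumor is set against its own liver, and the cause of the lost calls was not tested. Of the 19, 12 were in complex I, 4 in complex III, 2 in complex V and 1 in complex IV. Accessory subunits supplied 17 of their 52 members (median 0.66), and core subunits 2 of their 20 (median 0.30).

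Ndufa3 (chromosome 7, 3617373 to 3620327) lay at 77.0, 73.6, 82.6, 78.3, 70.6 and 56.4 CPM in the livers. It lay at 76.4 and 57.8 CPM in T-HCC662 and T-HCC663, and at 27.3, 38.6, 35.7 and 37.5 CPM in the other tumors. The Ctnnb1-mutated tumors were within the livers' range and the other tumors below it. The class difference was 0.96 on the log2 scale (SE 0.20, adjusted p = 0.0124, edgeR), and 0.87 with the animal as a block (adjusted p = 0.167, edgeR).

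Uqcrb, a small subunit of complex III (chromosome 13, 66900617 to 66905378), lay at 27.6 to 46.6 CPM in the livers (median 41.7). It lay at 62.0 and 37.8 CPM in T-HCC662 and T-HCC663, and at 11.7, 25.0, 18.04 and 21.9 CPM in the other tumors. T-HCC662 was above every liver and the other tumors below every liver. The class difference was 1.39 (SE 0.29, adjusted p = 0.0125, edgeR), and 1.10 with the animal as a block (adjusted p = 0.187, edgeR). Pseudogene copies cover 62.8% of its transcript.

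Ndufs4, an accessory subunit of the peripheral arm of complex I (chromosome 13, 114287795 to 114388258), lay at 52.6 to 86.1 CPM in the livers (median 72.6). It lay at 93.3 and 80.4 CPM in T-HCC662 and T-HCC663, and at 32.01, 47.0, 42.7 and 45.9 CPM in the other tumors. The other tumors were below every liver, T-HCC941 most. The class difference was 1.06 (SE 0.23, adjusted p = 0.0133, edgeR), and 0.80 with the animal as a block (adjusted p = 0.265, edgeR). Uqcrb and Ndufs4 lie on chromosome 13, where all genes tested had a median of -0.51 in T-HCC941 and -0.06 in T-HCC662, while the 6 members there had medians of -1.29 and 0.21.

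Some markers of other cell types moved with the class. Summed endothelial markers were 61.2 and 100.3 CPM in the Ctnnb1-mutated tumors, 154 to 281 CPM in the other tumors and 66.7 to 218 CPM in the livers. Summed stellate cell and fibroblast markers were 20.5 and 47.3 CPM, 98.9 to 263 CPM and 15.7 to 100.2 CPM in the same order. Of the 6 markers each, 4 endothelial and 2 stellate genes were lower in the Ctnnb1-mutated than in the other tumors. Markers of cycling cells summed to 129.9 and 132 CPM, 11.8 to 139 CPM and 6.58 to 30.9 CPM. Cholangiocyte markers summed to 17.6 and 35.1 CPM, 60.8 to 1069 CPM and 50.4 to 135 CPM, most of it Spp1 (up to 1042 CPM in T-HCA992) and Sox9. Of the 5, 1 was lower in the Ctnnb1-mutated than in the other tumors and 0 were higher, Krt7 and Epcam overlapped between the classes, and Krt19 had the higher mean in the Ctnnb1-mutated tumors (1.10 against 0.519 CPM). Macrophage markers (60.0 and 419.5 CPM against 86.1 to 528 CPM) and lymphocyte markers (5.16 and 7.98 CPM against 2.12 to 22.2 CPM) overlapped between the classes. No marker of these lists was at 0 everywhere. Their part in the members' levels was not tested.

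Isoform pairs were described whatever their values. The liver isoform Cox6a1 lay at 378 to 505 CPM in the livers and 189.5 to 518 CPM in the tumors. Cox6a2, the heart and skeletal muscle isoform (chromosome 7, 128205435 to 128206387), lay at 0 to 0.393 CPM in the livers, at 2.09 and 3.47 CPM in T-HCC662 and T-HCC663 and at 0.144 to 0.668 CPM in the other tumors. The Ctnnb1-mutated tumors were above every liver and every other tumor, which is given as a description, because the gene did not pass the filter with all tumors. Summed markers of striated muscle were 0 to 0.255 CPM in the livers, 1.08 and 1.29 CPM in the Ctnnb1-mutated tumors and 0.115 to 1.62 CPM in the other tumors. The part of muscle RNA in the level of Cox6a2 was not tested.

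Cox7a1, the other muscle isoform that was tested, lay at 0.54 to 2.10 CPM in the livers and 0.172 to 2.58 CPM in the tumors, and was called in no comparison. Cox8b reached 1.65 CPM in T-HCC663 and at most 0.134 CPM in the other 5 tumors. Of the liver isoforms, Cox7a2 was higher in the Ctnnb1-mutated than in the other tumors (0.96, SE 0.28, adjusted p = 0.0446, edgeR). That call was lost without T-HCC662 and with the animal as a block. Cox7a2 lay at 139.7 CPM in T-HCC662, and at 85.5 CPM in T-HCC663, within the livers' range of 69.5 to 127.6 CPM. Cox8a was lower in the other tumors than in the livers (-0.86, SE 0.26, adjusted p = 0.0311, edgeR). Cox6b1, Cox7b and Cox6a1 were lower there too, at -0.71, -0.63 and -0.69. Cox7a2l, an assembly factor of respiratory supercomplexes, was 1 of 3 members with a positive value in all tumors, at 0.35 (SE 0.26, adjusted p = 0.435, edgeR), and its levels overlapped between groups.

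The 3 genes for subunit c of the ATP synthase ring encode the same mature protein. Per kb of all exons, Atp5g3 had the highest level in the livers (137 CPM per kb ± 25.5 SD, n = 6), followed by Atp5g1 (5.67 ± 1.34) and Atp5g2 (1.51 ± 0.425), each apart from the next by more than their SDs. In the other tumors Atp5g3 (-0.86, SE 0.21, adjusted p = 0.0122) and Atp5g1 (-0.84, SE 0.25, adjusted p = 0.0287) were lower in edgeR, and Atp5g2 was at -0.22 (SE 0.33, adjusted p = 0.672).

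Levels were compared between genes only per kb of gene length, and their order changed with the length used. Per kb of all exons, the livers' mean was highest for Cox6a1 (592 CPM per kb ± 72.6 SD, n = 6), followed by Cox8a (266 ± 67.0), Atp5a1 (263 ± 31.97), Uqcrq (247 ± 67.6) and Uqcrfs1 (215 ± 36.6). Cox6a1 stood apart, and the next 4 overlapped within their SDs. Among members with a count in every library it was lowest for Atp5l (0.437 ± 0.0937), Ndufb4 (1.46 ± 0.387), Atp5g2 (1.51 ± 0.425), Ndufa4l2 (2.59 ± 0.789) and Cox7a1 (2.66 ± 1.26). Atp5l and Ndufb4 encode subunits of the complete ATP synthase and complex I. Per kb of the longest protein-coding transcript Cox6a1 stayed highest (728 ± 89.3), but Atp5b (437.9 ± 93.1), Atp5g3 (414 ± 77.0), Ndufa4 (360 ± 69.3) and Atp5e (343 ± 39.2) came next, and Cox8a, Uqcrq and Uqcrfs1 fell to ranks 7, 8 and 12. On that length Ndufb4 was lowest (2.89 ± 0.763), and Atp5l ranked 72 of the 77 (5.17 ± 1.11), since the exons of Atp5l span 6443 bp in all and its coding transcript 544 bp.

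Short genes with processed pseudogenes can lose reads that map to more than 1 place. Atp5l has near-identical transcripts of 11 other genes, 9 of them pseudogenes, over 86.8% of its longest protein-coding transcript, the length on which it lay at 5.17 CPM per kb. In all, 34 of 82 members shared at least 100 bases at 95% identity with a transcript of another gene, and 8 of these over 50% or more of their length. The median level in the livers was 120.9 CPM per kb for the 43 tested members without such a copy and 73.7 CPM per kb for the 34 with one. The tumor medians did not follow this split, at -0.47 and -0.53 in all tumors against livers and -0.76 and -0.74 in the other tumors.

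**Figure D4:**
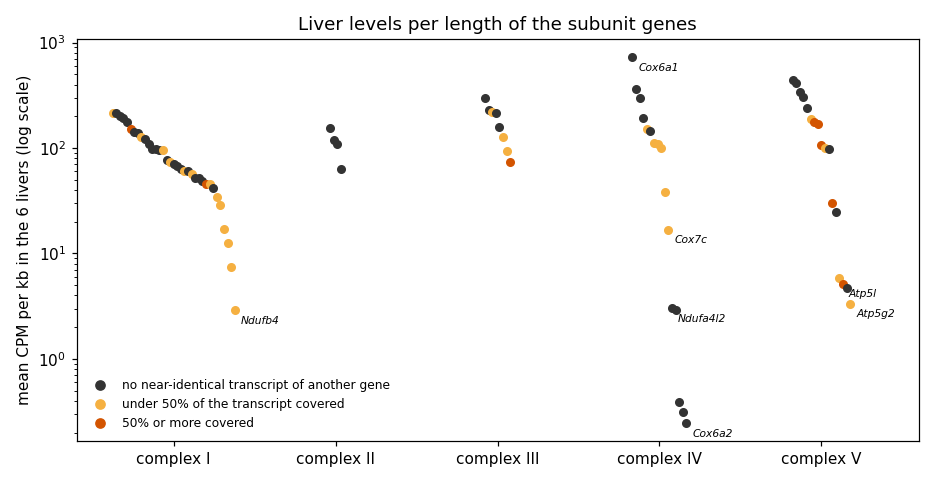
Mean CPM per kb of the longest protein-coding transcript in the 6 livers for each member, on a log axis by complex, colored by the share of the transcript with a near-identical copy. Cox6a1 is highest, and Atp5l at 5.17 CPM per kb is among the lowest, with 86.8% of its transcript covered.

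Transcript length was checked because subunit genes are short. In the other tumors, all genes with a transcript of up to 800 bp had a median log2 fold change of -0.24, those above 800 and up to 1200 bp -0.29, those above 1200 and up to 2000 bp -0.18 and longer ones 0.05. Core and accessory members of the same bins had medians of -0.76 (n = 32), -0.80 (n = 15), -0.76 (n = 17) and -0.63 (n = 8). In the Ctnnb1-mutated tumors all genes of these bins had medians of 0.02, 0.12, 0.07 and -0.07, and members -0.06, -0.25, -0.30 and -0.39. Members were lower than all genes of their length in every bin of both classes. For the class difference the medians of all genes were 0.31, 0.41, 0.25 and -0.14, and those of members 0.68, 0.49, 0.37 and 0.22, so the values lay closest between 800 and 1200 bp. The part of transcript length or RNA quality in the class difference was not tested.

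**Figure D5:**
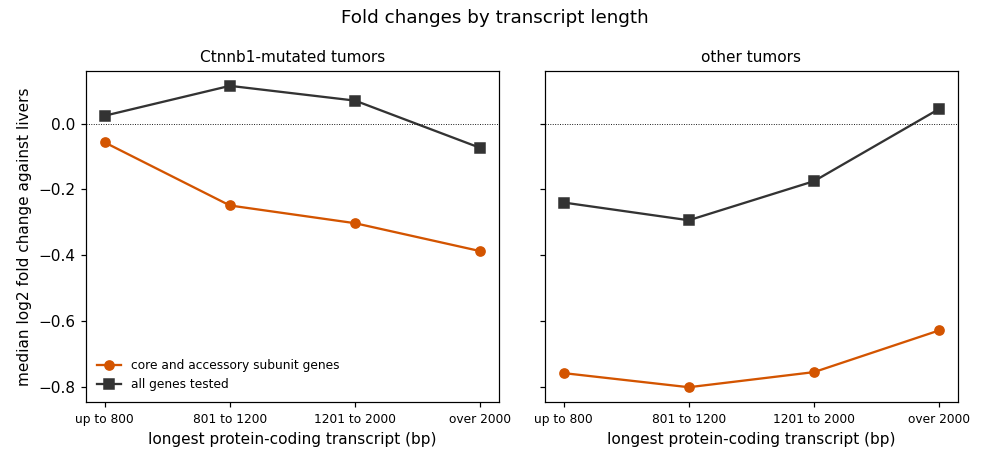
Median log2 fold change of all genes and of members in 4 bins of transcript length, in the Ctnnb1-mutated tumors (left) and the other tumors (right) against the livers. In the other tumors the members' medians lie between -0.80 and -0.63 in every bin, and those of all genes between -0.29 and 0.05.

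Ribosomal protein genes, which are also short, gave a second reference. The 77 genes of mitochondrial ribosomal proteins had medians against the livers of -0.01 and -0.02 in T-HCC662 and T-HCC663, and between -0.40 and -0.24 in the other tumors. The 81 genes of cytosolic ribosomal proteins had medians from -0.29 to 0.41 in the 6 tumors, with the classes overlapping. The core and accessory members were lower than both in T-HCC663 and in each of the other tumors. These groupings by length and ribosome were chosen after the data had been seen.

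Other genes of the pathway were described from lists. Of subunits and partners that the rule does not match, 6 were tested in all tumors. Of these 1 was higher and 0 lower, against 6.77% higher and 3.91% lower among all genes. The higher one was Atpif1, the inhibitor of the ATP synthase, at 6.88 to 24.8 CPM in the livers and 25.5 to 50.1 CPM in the tumors without overlap (1.00, SE 0.27, adjusted p = 0.0328, edgeR). Cox4i1, the main isoform of subunit 4 of cytochrome c oxidase, followed the members, at 373 to 575 CPM in the livers, 507 and 429 CPM in the Ctnnb1-mutated tumors and 197 to 293 CPM in the other tumors. It was lower in the other tumors (-1.03, SE 0.20, adjusted p = 0.00439, edgeR) and higher in the Ctnnb1-mutated than in the other tumors (1.03, SE 0.26, adjusted p = 0.0259, edgeR). Cycs, cytochrome c, was likewise lower in the other tumors (-0.96, SE 0.29, adjusted p = 0.0315, edgeR). Cox4i2, the lung isoform, lay at 0 to 0.372 CPM in the livers and at 1.47 and 1.73 CPM in T-HCC662 and T-HCC663. It lay at 0.36 to 0.576 CPM in the other tumors and did not pass the filter on low counts with all tumors.

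Of 46 assembly factors tested, 5 were lower in all tumors and 0 higher (median -0.34), against 3.91% lower and 6.77% higher among all genes. The count in the other tumors was 12 lower and 0 higher (median -0.40), against 10.2% lower and 12% higher among all genes. The 5 were Ndufaf3, Ndufaf4, Ecsit and Acad9, which act on complex I, and Surf1, which acts on complex IV. Surf1 lay at 36.8 to 48.1 CPM in the livers and 24.3 to 36.8 CPM in the tumors (-0.57, SE 0.13, adjusted p = 0.0164, edgeR). Between the classes 8 assembly factors were higher in the Ctnnb1-mutated tumors and 0 lower, against 6.12% higher and 5.7% lower among all genes, in the fit whose calls for members were lost without T-HCC662. Of 14 regulators of mitochondrial biogenesis 0 were called in all tumors (median -0.21). In the other tumors 2 were lower, Esrrg and Esrra, and 0 higher, against 10.2% lower and 12% higher among all genes. Esrrg, an orphan nuclear receptor, lay at 4.63 and 4.86 CPM in T-HCC662 and T-HCC663 and at 0 to 0.975 CPM in the other tumors. The livers, at 0.70 to 6.85 CPM, overlapped both classes. Ppargc1a, the coactivator PGC-1α, overlapped between livers (3.78 to 14.3 CPM) and tumors (4.52 to 12.4 CPM). Of 5 carriers and uncoupling proteins tested 0 were called in all tumors (median 0.19).

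Genotypes were compared to ask whether active and inactive Tert differed. In p21+/Tert mice (4 tumors and 4 livers) 7 of 79 members were lower (8.86%) and 0 higher, against 2.3% lower and 4.2% higher among all genes tested, with a median of -0.55. At an unadjusted p under 0.05, 37 were lower and 2 higher, beside 1452 lower and 2048 higher of all 15182 genes. DESeq2 called 19 lower and 2 higher, beside 774 lower and 1335 higher of all genes. The 7 were Sdhb (-1.20), Ndufb3 (-0.76), Ndufb8 (-0.84), Uqcrfs1, Ndufv1, Ndufv2 and Ndufs8. Without the liver paired with T-HCC662 no member was called and without T-HCC662 20 were, and with the animal as a block 10 were.

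In p21+/TertCi mice (2 tumors and 2 livers) edgeR called 0 members and 0% of all genes in either direction. At an unadjusted p under 0.05 in edgeR 17 members were lower and 0 higher, beside 644 lower and 974 higher of all 15182 genes. DESeq2 called 2 lower, beside 69 of all genes. The median was -0.53, close to that of p21+/Tert mice. The difference of the tumor effects between genotypes was called for 0 members and 0% of all genes by edgeR, for 0 at an unadjusted p under 0.05 and for 0 by DESeq2, with a median of 0.02 over the members and 0.06 over all genes. A test with 2 animals a group does not show that the genotypes act alike. Between the livers edgeR called 0 members and 0% of all genes. At an unadjusted p under 0.05 in edgeR 6 members were higher in p21+/Tert livers and 0 lower, beside 328 higher and 428 lower of all genes. DESeq2 called 1 member higher, beside 24 of all genes, and the median over the members in edgeR was 0.29. The low levels of the liver paired with TCi-HCA984 enter this median. Both Ctnnb1-mutated tumors are from p21+/Tert mice, and within that genotype the class medians against the livers were 0.00 and -0.39 in T-HCC662 and T-HCC663 beside -0.91 and -0.60 in T-HCC941 and T-HCA992.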

How the data were processed

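The authors deposited raw counts per gene for 12 poly(A) RNA-seq libraries, made from paired-end reads with Subread, SAMtools and featureCounts 1.6.4 on mm10, as named in the submitters' processing notes. The annotation release, the strand setting and the treatment of reads with several matches are not given in the sources used here, nor is the sequencing run for which the study corrected.

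Counts were tested with edgeR 4.0.16 (R 4.3.3), with TMM normalization, its default filter on low counts by group, quasi-likelihood F tests, and p adjusted over all genes after Benjamini and Hochberg, called under 0.05. Each SE was taken as the absolute log2 value over the root of F. Genotype and class comparisons used all 12 libraries in 1 model each. Alternatives were DESeq2 1.42.0, other size factors, no filter, the animal as a block, and leaving out each library. The scripts were tested on simulated data. Replicates are different animals.

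Same-numbered samples come from the same animal. The correlation of their deviations from the group means was 0.19 for the mouse of T-HCC662, 0.04 for T-HCC663, 0.04 for T-HCC941, 0.44 for T-HCA992, and 0.55 each for TCi-HCC981 and TCi-HCA984. No 2 libraries of a group agreed within counting noise.

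Positions came from GENCODE mouse release 21 (GRCm38), in which 81 members matched by symbol and 1 by synonym. Near-identical transcripts were sought with BLAST 2.17.0. Named genes were the called members of each complex (at most 6 by p), the member of largest change that moved one way in all mice, the isoform sets and Sdh genes, the 3 of smallest p in each other comparison, and the 5 highest and 5 lowest per length. Further genes were named after their values were seen. The members and lists were chosen with earlier results of these data known.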

Additional observations from a re-analysis of the deposited data

Results flagged for a closer look

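In 76 groups of 6 libraries, single members were checked for a library far from the rest, and chance marks about 1 in 20 groups. In 4 the tumors held such a library. Atp5j2 was at 92.7 CPM in T-HCC662 and at 48.6 to 58.6 CPM in the 5 other tumors. Cox6a1 was at 518 CPM in T-HCC662 and at 189.5 to 308 CPM in the others. Cox8b was at 1.65 CPM in T-HCC663 and at 0 to 0.134 CPM in the others. Sdhc was at 207 CPM in TCi-HCC981 and at 137 to 160.0 CPM in the others. All genes tested on chromosome 1, where Sdhc lies, had a median log2 difference from the livers of 0.435 in TCi-HCC981. That median was 0.329 in T-HCC941, where Sdhc was lowest of the tumors, at 137 CPM. The paper reports copy number gains that include Sdhc in both of these tumors, which it lists under another chromosome. The part of copy number or of the chromosome's median in the level of Sdhc was not tested.

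Levels differed between the Ctnnb1-mutated and other tumors for 19 members in edgeR, all of them higher in the Ctnnb1-mutated tumors. This test compared the tumors with each other and not each tumor with its own liver. Of the genes named by rule these were Ndufa3 (log2 difference 0.96, adjusted p = 0.0124), Uqcrb (1.39, adjusted p = 0.0125), Ndufs4 (1.06, adjusted p = 0.0133), Ndufb7 (0.87, adjusted p = 0.0254), Ndufa5 (0.93, adjusted p = 0.0289), Uqcrq (1.17, adjusted p = 0.0299) and Cox7a2 (0.96, adjusted p = 0.0446). The 19 calls were lost without T-HCC662, which leaves 1 tumor in that class, and with the animal as a block, while the value for Ndufa3 was then 0.73 and 0.87, for Uqcrb 0.98 and 1.10 and for Ndufs4 0.94 and 0.80.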

How the results depend on the processing

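With 2 to 6 libraries in a group, counts of called members moved with the fit more than their medians did. In all tumors against livers the median stayed between -0.64 and -0.43 when a library was left out, and Sdhb, Ndufs8 and Cox7c kept their calls in all fits run. The sequencing run could not be entered, and depth limits the members near 0. Causes of the changes below were not tested.

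DESeq2 called 26 members lower in all tumors, 19 lower and 2 higher in p21+/Tert mice, 2 lower in p21+/TertCi mice, 1 higher between the livers, 3 lower in the Ctnnb1-mutated tumors and 1 higher in the other tumors. Among all genes it called 954 of 13822 lower in all tumors and 1004 of 15182 lower in the Ctnnb1-mutated tumors. In the 6 tumors alone 4 members differed between the classes. Size factors of the RLE kind and no filter left every count within 1.5 times.

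With the replicate block, the animal being the pair, 29 members were lower in all tumors, 0 differed between the classes, and 0 were higher and 2 lower in the Ctnnb1-mutated tumors. With the block and without the pair of T-HCC662, whose liver was matched by elimination, 39 were lower and 0 higher in all tumors, 0 differed between the classes, 0 were higher and 0 lower in the Ctnnb1-mutated tumors, and 1 was higher in the other tumors. The block changed no other count by more than 1.5 times.

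Leaving out each library in turn gave, in all tumors, 7 to 34 members lower and 0 to 1 higher. In p21+/Tert mice it gave 0 to 20 lower and 0 to 1 higher. Between the classes it gave 0 to 21 higher. In the Ctnnb1-mutated tumors it gave 0 to 2 lower and 1 to 2 higher, and in the other tumors 34 to 49 lower and 0 to 1 higher. The lowest values were without T-HCC662 between the classes and without its paired liver in p21+/Tert mice.

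No gene named in all tumors changed its sign. Between the classes 29 fits of single genes did, all of genes that were not called or, for Cox7a2, near 0. With the replicate block these were Sdhc (0.086), Atp5g2 (-0.135), Cox7a2l (-0.11), Ndufs8 (-0.014), Cox6b2 (0.58) and Cox7b (-0.032). With the block and without the pair of T-HCC662 they were Sdhc (0.085), Ndufa4l2 (-1.08), Cox7a2l (-0.084), Atp5a1 (-0.473), Ndufs8 (-0.209), Ndufb6 (-0.01), Ndufa9 (-0.146), Cox6b2 (4.221), Sdhd (-0.069), Cox7a2 (-0.02) and Cox7b (-0.379). Ndufb8 was at 0.009 with no filter and at 0.017 in the 6 tumors alone. With each library left out, Ndufa4l2 ranged from -0.733 to 2.017, Atp5a1 from -0.297 to 0.53, Ndufa9 from -0.005 to 0.677, Atp5g2 from -0.136 to 0.412, Ndufb8 from -0.121 to 0.201, Sdhb from -0.283 to 0.136, Cox7a2l from -0.129 to 0.305 and Sdhc from -0.188 to 0.04.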
